A study of Mus musculus with 8 samples.

Results

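The regulators described here are 35 genes of pluripotency and of primordial germ cells, the embryonic founders of the germ line, measured in cultured mouse spermatogonial stem cells, from which sperm production in the adult testis is renewed. Each of the 35 listed genes had at least 1 probe set that carried its symbol alone, and a gene was represented by the brightest of these over all arrays. They are 35 of 19938 genes that could be named in this way. The study hybridised total RNA of 8 samples to 8 arrays in 3 groups. The serial-transplant long-culture group (n = 2) came from stem cells passed from testis to testis, with a donor age of 1500 days on its labels, and was cultured for 14 to 18 months. The young-donor long-culture group (n = 3) came from donors of 8 days and was cultured for 14 to 18 months. The young-donor short-culture group (n = 3) also came from donors of 8 days and was cultured for 7 to 10 weeks. No genotype, strain, transgene or drug is named in the labels of any group, nor are feeder cells, and donor age and serial transplantation cannot be told apart. The labels do not say whether replicates were separate cultures, and p-values reflect no more than the differences among these arrays, possibly technical ones. Values are log2 signals, so that a difference of 1 is a 2-fold change, and the number of arrays limits their precision.

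Pluripotent cells of the early embryo are held in their state by a small circuit of transcription factors, with OCT4 (encoded by Pou5f1), SOX2 and NANOG at its core, and by LIF, a cytokine that acts through the receptor chains LIFR and gp130 (Il6st) on the transcription factor STAT3. Primordial germ cells switch on much of this circuit again under PRDM1, PRDM14 and AP-2 gamma (Tfap2c), and lose most of it when they become spermatogonia. Spermatogonial stem cells of the mouse keep some of these genes, such as Pou5f1, Sall4 and Lin28a, while NANOG and SOX2 protein are known to be lacking in them.

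RefSeq promoter windows (build GRCm38.p6, from 250 bases before to 50 after a gene's start) were found for 23 of the 35 genes, 28 windows in all. They were searched on both strands for 5 motifs: the octamer ATGCAAAT bound by OCT4, TCAAGGTCA bound by ESRRB, TTCCNGGAA bound by STAT factors, the E-box CACGTG bound by MYC with its partner MAX, and GGGTGTGGC bound by KLF factors. Among all 32851 promoter windows these were present in 1.74%, 0.423%, 1.15%, 7.15% and 1.35%, in that order. Of the 28 windows, 1 held the octamer (Zfp42, 186 bases before the start) and 2 held the E-box (Klf4, 182 bases before, and Lin28b, 49 bases before), and the other motifs were found in none. A match describes letters in the window and not binding. The windows below are those of Pou5f1, of Zfp42, the member with the octamer, and of the paralogs Lin28a and Lin28b. Among genes brighter than the median of all probe sets, Pou5f1 had the widest range over the young long-culture arrays, though not in the other groups. A further window of Pou5f1 is not printed. Lin28a rose after long culture. Capitals mark a motif, and each window is read 5′ to 3′ along its gene.
Pou5f1, chr17:35505782-35506081, plus strand: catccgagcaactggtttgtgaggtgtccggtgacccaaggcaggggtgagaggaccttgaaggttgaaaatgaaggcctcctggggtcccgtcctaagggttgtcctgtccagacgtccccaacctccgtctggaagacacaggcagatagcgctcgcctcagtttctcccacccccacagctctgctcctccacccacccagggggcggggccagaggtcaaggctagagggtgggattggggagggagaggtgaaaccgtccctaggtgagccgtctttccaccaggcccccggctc
Zfp42, chr8:43306960-43307259, minus strand: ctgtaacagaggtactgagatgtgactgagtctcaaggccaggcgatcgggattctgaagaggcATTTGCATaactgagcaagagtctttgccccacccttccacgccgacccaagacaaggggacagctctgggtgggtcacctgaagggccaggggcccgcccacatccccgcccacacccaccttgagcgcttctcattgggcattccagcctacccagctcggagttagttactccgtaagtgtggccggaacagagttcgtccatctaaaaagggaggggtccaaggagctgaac
Lin28a, chr4:134018767-134019066, minus strand: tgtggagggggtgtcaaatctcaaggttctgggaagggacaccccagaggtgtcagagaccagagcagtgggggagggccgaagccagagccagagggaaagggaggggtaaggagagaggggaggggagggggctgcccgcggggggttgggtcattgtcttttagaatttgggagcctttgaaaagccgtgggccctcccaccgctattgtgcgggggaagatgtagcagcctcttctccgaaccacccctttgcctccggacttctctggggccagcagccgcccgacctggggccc
Lin28b, chr10:45470152-45470451, minus strand: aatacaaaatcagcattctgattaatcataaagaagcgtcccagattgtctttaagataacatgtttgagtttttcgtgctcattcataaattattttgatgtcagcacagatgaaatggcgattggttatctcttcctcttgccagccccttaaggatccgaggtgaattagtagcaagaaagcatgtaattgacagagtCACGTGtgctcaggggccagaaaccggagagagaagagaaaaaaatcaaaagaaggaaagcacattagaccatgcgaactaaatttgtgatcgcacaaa

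The arrays carried the signal of germ cells in all 3 groups. Dazl, an RNA-binding protein of germ cells, lay between 12.08 and 12.81 on all 8 arrays, and Ddx4, the germ cell helicase, between 10.87 and 11.98. Of 20 markers of undifferentiated spermatogonia, between 15 and 19 exceeded 6.94, the median of all probe sets, on each array. Fibroblast markers were present as well: 18 of 20 exceeded that median on every array, and their mean was 9.36 and 8.81 on the serial-transplant arrays, 9.32 to 9.38 on the young long-culture arrays and 9.86 to 10.40 on the young short-culture arrays. Of 10 macrophage markers, 1 exceeded the median on each long-culture array and 3 to 5 did on the short-culture arrays, and of 9 Sertoli cell markers 3 to 5 did on any array. Young short-culture replicate 2 stood apart, with correlations of 0.990 and 0.991 to its group (0.996 between the other replicates), the highest fibroblast mean (10.40) and the lowest array weight (0.328).

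Of the 35 regulators, 23 had a mean over the 8 arrays above the median of all probe sets (65.7%, against 54.6% of all genes), 11 were dim, between the lower quartile of 5.41 and the median, and Nr0b1 was below the lower quartile. The signals gave no detection call, so a dim value may be background. Of the core trio only Pou5f1 was above the median, with a mean of 7.85. Nanog averaged 5.94 ± 0.11 in serial-transplant, 5.88 ± 0.04 in young long-culture and 5.90 ± 0.07 in young short-culture cells (SD, n = 2, 3 and 3), and its 8 values all lay between 5.85 and 6.02. Sox2 lay between 5.26 and 6.54. The other dim genes were Lif, Dppa3, Fbxo15, Tdgf1, Gdf3, Nodal, Prdm14, Prdm1 and Tfap2c. Of the primordial germ cell trio, Prdm1 lay between 6.28 and 6.80, Prdm14 between 5.48 and 6.01 and Tfap2c between 5.81 and 6.31 on the 8 arrays, and none of them passed a test in any comparison.

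**Figure D1:**
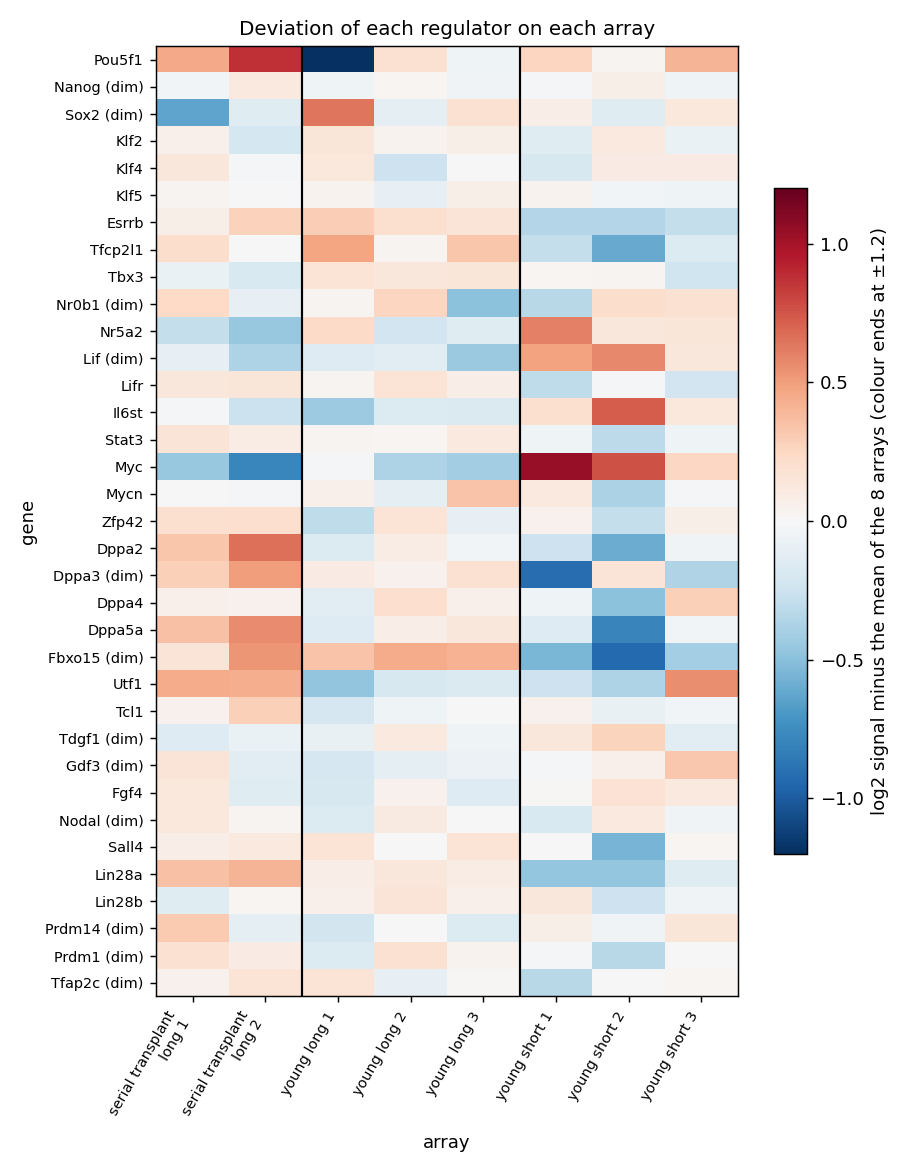
Deviation of each of the 35 genes (rows) from its mean over the 8 arrays (columns, grouped by culture), in log2 units, with colours that end at ±1.2. Genes marked dim have a mean below the median of all probe sets; Pou5f1 is at 5.68 on young long-culture replicate 1, and Myc and Lif are highest on short-culture arrays.

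Between serial-transplant and young-donor cells, both after long culture, none of the 35 genes passed the test (limma, Benjamini-Hochberg adjusted p under 0.05), and 0% of the 28944 probe sets did. At an unadjusted p under 0.05 these were 7 of the 35 genes (20.0%) and 2079 probe sets (7.18%). Between long and short culture of young-donor cells, 4 genes rose (Fbxo15, Tfcp2l1, Esrrb and Lin28a) and 3 fell (Myc, Lif and Il6st), which is 20.0% of 35 beside 11.3% of all probe sets (5.43% higher, 5.83% lower). Between serial-transplant long-culture and young short-culture cells, 5 rose (Fbxo15, Dppa2, Dppa5a, Lin28a and Esrrb) and 3 fell (Myc, Nr5a2 and Lif), 22.9% of 35 beside 8.73% of all probe sets (3.58% higher, 5.15% lower). The median change over the 35 genes was 0.07, 0.12 and 0.12 in these 3 comparisons, beside 0.01, -0.04 and -0.01 over all genes. The shares over all probe sets include dim and unnamed ones, which the 35 genes hold less of or not at all. Among genes above the probe-set median, 3 of 23 members rose and 2 fell in young-donor long culture, beside 1055 and 898 of 10884 genes. In serial-transplant against short-culture cells 4 of these 23 rose and 2 fell, beside 723 and 863 genes. Both comparisons with short culture use the same short-culture arrays, so the 5 genes called in both (Esrrb, Lif, Myc, Fbxo15 and Lin28a) are not independent. The calls of the last comparison rested on serial-transplant replicate 2: without it 0 of the 35 genes and 66 probe sets passed in limma. Of the 7 calls between long and short culture of young-donor cells, leaving out young long-culture replicate 1 kept 4, and leaving out replicate 3 kept 2. Of all probe sets called, 48.3% were higher in young-donor long culture and 41.0% in serial-transplant against short-culture cells, which became 59.7% and 51.0% with arrays centred on their medians; the 8 calls of that comparison among the 35 genes then became 6 higher and 2 lower, with Dppa3 gained and Nr5a2 lost. In RNA of whole cultures, fewer cells of a type and less RNA per cell cannot be told apart.

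**Figure D2:**
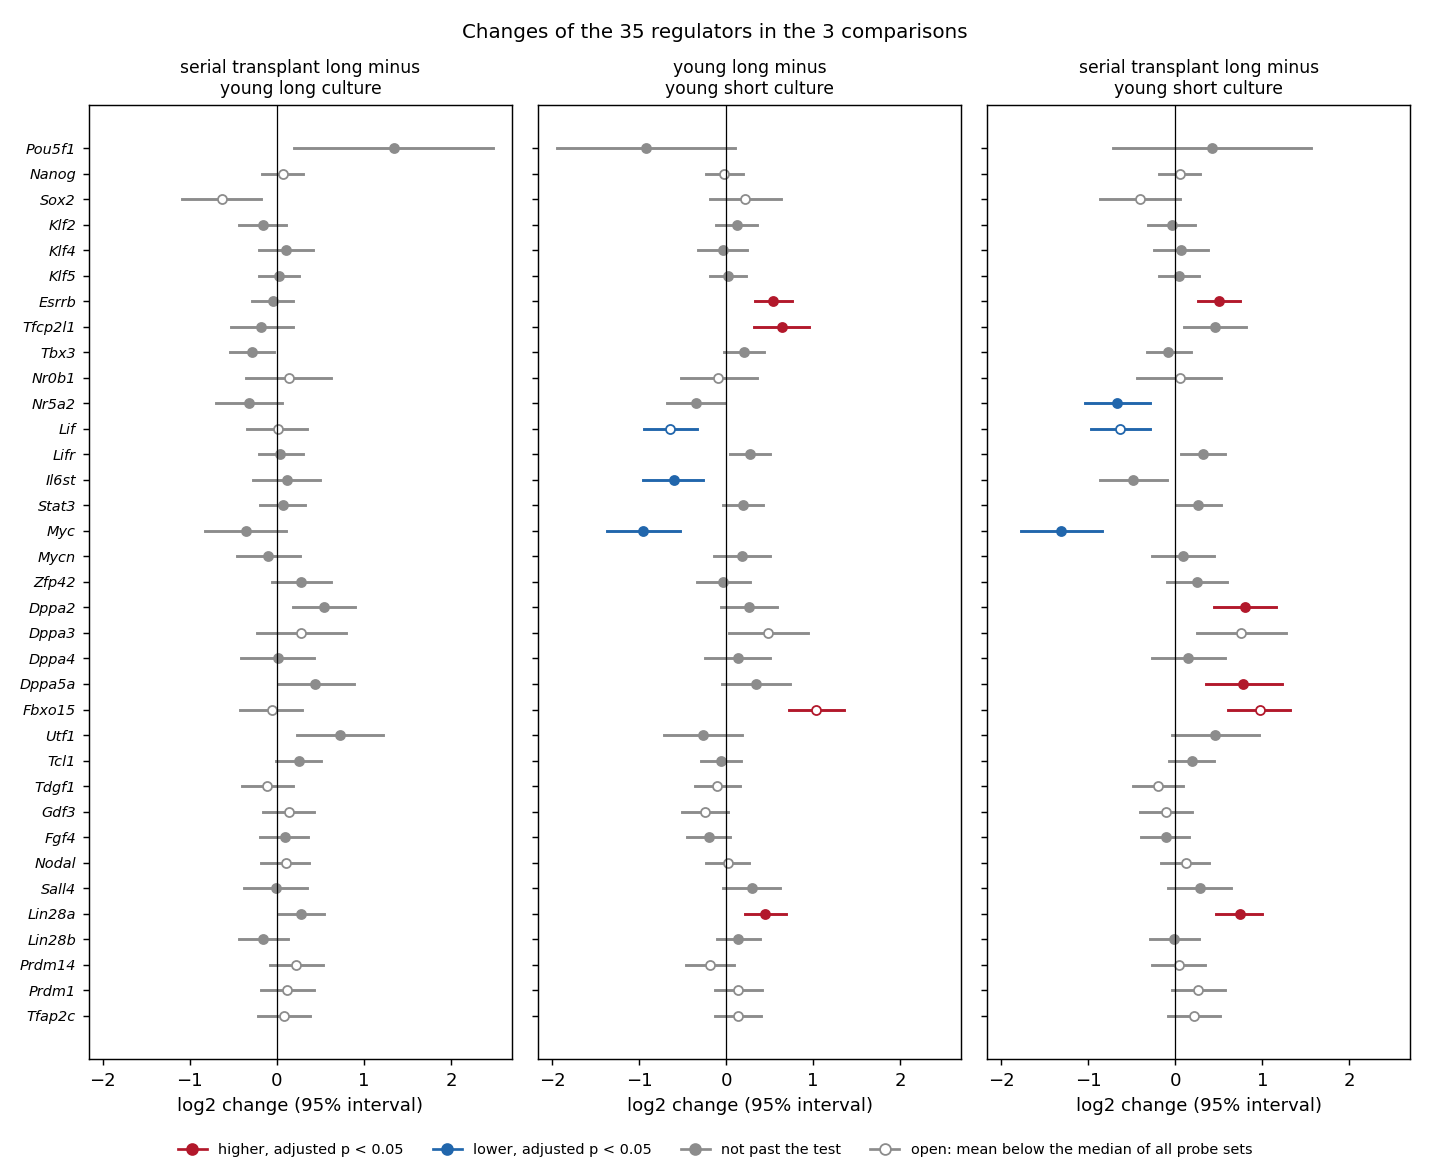
Log2 change of each gene with its 95% interval in the 3 comparisons (limma, 8 arrays); red and blue mark genes past an adjusted p of 0.05, and open circles mark genes whose mean lies below the median of all probe sets. No gene is coloured in the comparison of both long-culture groups, and the interval of Pou5f1 is the widest in each panel.

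Pou5f1, whose product OCT4 is the defining factor of pluripotency and also keeps primordial germ cells alive, stood at 8.30 and 8.72 on the serial-transplant arrays, at 5.68, 8.03 and 7.80 on the young long-culture arrays and at 8.11, 7.88 and 8.26 on the young short-culture arrays. The other 7 arrays lay between 7.80 and 8.72, and young long-culture replicate 1 lay below all of them. That array was 2.12 log2 units, or 4.34-fold, below the next of its group. The range of 2.35 over the young long-culture arrays exceeded that of every other gene of the 10884 that exceeded the probe-set median, for which the median range was 0.20. In the other groups Pou5f1 ranged over 0.42 and 0.38. Its change was 1.34 ± 0.52 (SE) in serial-transplant against young long culture (adjusted p = 0.620), and 0.59 without that array (adjusted p = 0.972). Long against short culture of young-donor cells gave -0.92 ± 0.46 (adjusted p = 0.240), and -0.17 without it (adjusted p = 0.621). On the same array the mean of the undifferentiated spermatogonial markers was 8.80, within the 8.64 to 9.0 of the other arrays, and Dazl was at 12.77, while Ddx4 was at 10.87, its lowest. Of the 35 members, 8 had their lowest value of the 8 arrays there and 7 their highest. The lowest included Zfp42 (6.84), Utf1 (7.80), Il6st (10.24), Tcl1 (9.51) and Fgf4 (6.96), and the highest included Sox2 (6.54), Esrrb (7.52) and Tfcp2l1 (7.89). RefSeq lists pseudogenes of Pou5f1 in the mouse, and whether its probes also read these was not tested.

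**Figure D3:**
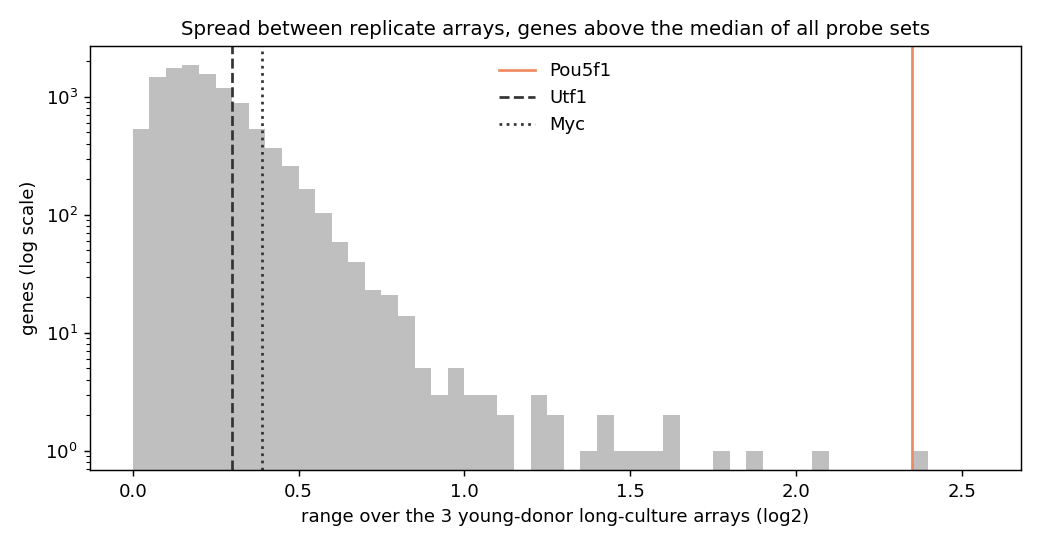
Histogram of the range over the 3 young-donor long-culture arrays (log2, x axis) for the 10884 genes whose mean exceeds the probe-set median, with the number of genes on a log scale. Vertical lines mark Pou5f1 at 2.35 and, for comparison, Utf1 and Myc, which lie among the bulk of genes.

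The factors of the naive network, which keep embryonic stem cells in the state of the early epiblast, included a pair that rose in young-donor long culture and 1 gene, Nr5a2, that fell in serial-transplant against young short-culture cells. Esrrb, an orphan nuclear receptor, read 7.29 and 7.50 in serial-transplant cells, 7.52, 7.42 and 7.38 in young long culture and 6.87, 6.87 and 6.94 in young short culture. All 5 long-culture arrays lay above all 3 short-culture arrays. It rose by 0.54 ± 0.10 in young-donor cells (1.46-fold, limma adjusted p = 0.00717), a call that held in each alternative except a required log2 change of at least 1, and by 0.50 ± 0.11 in serial-transplant against young short-culture cells (adjusted p = 0.0178, lost without serial-transplant replicate 2, at 0.228, and in a fit of these 2 groups alone, at 0.0556). Tfcp2l1, a factor downstream of LIF and STAT3, read 7.63 and 7.41 in serial-transplant cells, 7.89, 7.45 and 7.75 in young long culture and 7.13, 6.81 and 7.25 in young short culture. Here too the long-culture arrays did not overlap the short-culture ones. It rose by 0.64 ± 0.15 in young-donor cells (adjusted p = 0.0192, and 0.0805 without young long-culture replicate 1 or 3). In serial-transplant against short-culture cells its change of 0.46 ± 0.16 did not pass (adjusted p = 0.115), though it passed with the replicate block (0.52, limma adjusted p = 0.0331). Promoter windows of both genes held none of the 5 motifs.

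Nr5a2, a nuclear receptor that can bind the Pou5f1 promoter, read 8.13 and 7.96 in serial-transplant, 8.64, 8.18 and 8.27 in young long-culture and 9.02, 8.55 and 8.56 in young short-culture cells. It fell by 0.67 ± 0.17 in serial-transplant against young short-culture cells (limma adjusted p = 0.0350). That call was lost with arrays centred on their medians (0.0552), without serial-transplant replicate 1 (0.0924) or 2 (0.299), without short-culture replicate 1 (0.0878) and in a fit of these 2 groups alone (0.0591). In young-donor cells its change of -0.35 ± 0.15 did not pass (adjusted p = 0.180) and its groups overlapped. The Krüppel-like factors, zinc-finger factors that can stand in for one another in embryonic stem cells, gave no call: Klf2 lay between 8.07 and 8.43, Klf4 between 8.22 and 8.61 and Klf5 between 7.63 and 7.80 on the 8 arrays. The 95% interval of the change of long against short culture in young-donor cells was -0.12 to 0.36 for Klf2, -0.32 to 0.24 for Klf4 and -0.19 to 0.23 for Klf5. Tbx3, a T-box factor of the same network, read 7.71 and 7.61 in serial-transplant, 7.96, 7.93 and 7.94 in young long-culture and 7.82, 7.83 and 7.55 in young short-culture cells. Its young long-culture arrays were the highest, but the difference of serial-transplant from young long culture, -0.29 ± 0.12, did not pass (adjusted p = 0.646). Nr0b1, an X-linked nuclear receptor, lay between 4.14 and 4.89, in the range of background.

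Of the LIF pathway, the cytokine and the shared receptor chain were lower after long culture in young-donor cells. Lif read 6.37 and 6.10 in serial-transplant, 6.32, 6.34 and 6.03 in young long-culture and 6.95, 7.05 and 6.61 in young short-culture cells, and the long-culture arrays lay below all short-culture ones. It fell by 0.64 ± 0.14 in young-donor cells (limma adjusted p = 0.0163, and 0.0791 without young long-culture replicate 3) and by 0.63 ± 0.16 in serial-transplant against short-culture cells (adjusted p = 0.0294, lost without either serial-transplant array, at 0.0548 and 0.310, without short-culture replicate 1 or 2, at 0.0785 and 0.0647, with array weights, at 0.0519, and in a fit of these 2 groups alone, at 0.0648). Its mean in each of the 3 groups lay below 6.94, the probe-set median. Il6st, the gp130 chain shared by receptors of the IL-6 family, read 10.66 and 10.41 in serial-transplant, 10.24, 10.51 and 10.50 in young long-culture and 10.86, 11.40 and 10.80 in young short-culture cells. It fell by 0.60 ± 0.16 in young-donor cells (adjusted p = 0.0323), and the call was lost without any 1 of the 3 young long-culture arrays (0.0605 to 0.127) and without short-culture replicate 2 (change -0.41, adjusted p = 0.0610). In serial-transplant cells its change of -0.48 ± 0.18 did not pass (adjusted p = 0.125).

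Lifr, the chain that binds LIF itself, was not lower after long culture. It read 9.27 and 9.28 in serial-transplant, 9.17, 9.30 and 9.22 in young long-culture and 8.83, 9.12 and 8.91 in young short-culture cells, so that all long-culture arrays were higher. Its changes of 0.32 ± 0.12 and 0.28 ± 0.10 against short culture missed the test (limma adjusted p = 0.121 and 0.110). Both passed without short-culture replicate 2 (0.0438 and 0.0459) and with array weights (0.0465 and 0.0214). Stat3, the transcription factor at the end of the pathway, read 11.65 and 11.58 in serial-transplant, 11.53, 11.52 and 11.61 in young long-culture and 11.44, 11.18 and 11.44 in young short-culture cells, and its changes of 0.26 ± 0.12 and 0.20 ± 0.10 did not pass (adjusted p = 0.208 and 0.255). Of 23 further measured genes of this pathway, 1 rose and 2 fell in young-donor long culture: Cntfr, a ligand-binding chain for CNTF, at 0.37 ± 0.10, and the receptor chains Osmr at -1.13 ± 0.25 and Il6ra at -0.56 ± 0.13. Of the same list none rose and 2 fell in serial-transplant against short-culture cells, Osmr at -1.54 ± 0.28 and Ptpn11, a phosphatase that signals below gp130, at -0.49 ± 0.12. Of all probe sets, 11.3% passed in the first of these comparisons and 8.73% in the second. The list's median change was -0.10 and -0.16, against -0.04 and -0.01 over all genes. Socs3, the feedback inhibitor that STAT3 induces, lay between 8.88 and 9.20 on the 8 arrays.

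Fibroblast markers moved with these falls. Of 20 measured, 15 fell in young-donor long culture (median -0.78) and 16 in serial-transplant against young short-culture cells (median -1.13), and none rose. The smallest p in young-donor cells belonged to the collagen gene Col1a2 (-1.04 ± 0.18), Cald1 (-1.06 ± 0.18), Mmp2 (-1.02 ± 0.18) and Acta2 (-1.24 ± 0.23), and in serial-transplant against short-culture cells to Cald1, Col1a2, Mmp2 and Vim (-1.33, -1.26, -1.29 and -1.07). Of 10 macrophage markers 4 fell in each, Laptm5 (-2.29 ± 0.23 and -2.18 ± 0.26), Fcer1g, Ptprc and Tyrobp, with a list median of -0.23 and -0.21. Of 9 Sertoli cell markers Wt1 rose in both (0.90 ± 0.17 and 0.73 ± 0.19), and Sox9 changed by -1.07 ± 0.21 in serial-transplant against short-culture cells. Only 2 of these 9 changes were positive in each comparison, with a list median of -0.09 and -0.11. Their part in the falls of Lif, Il6st, Myc and Nr5a2 and in the rises was not tested.

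**Figure D4:**
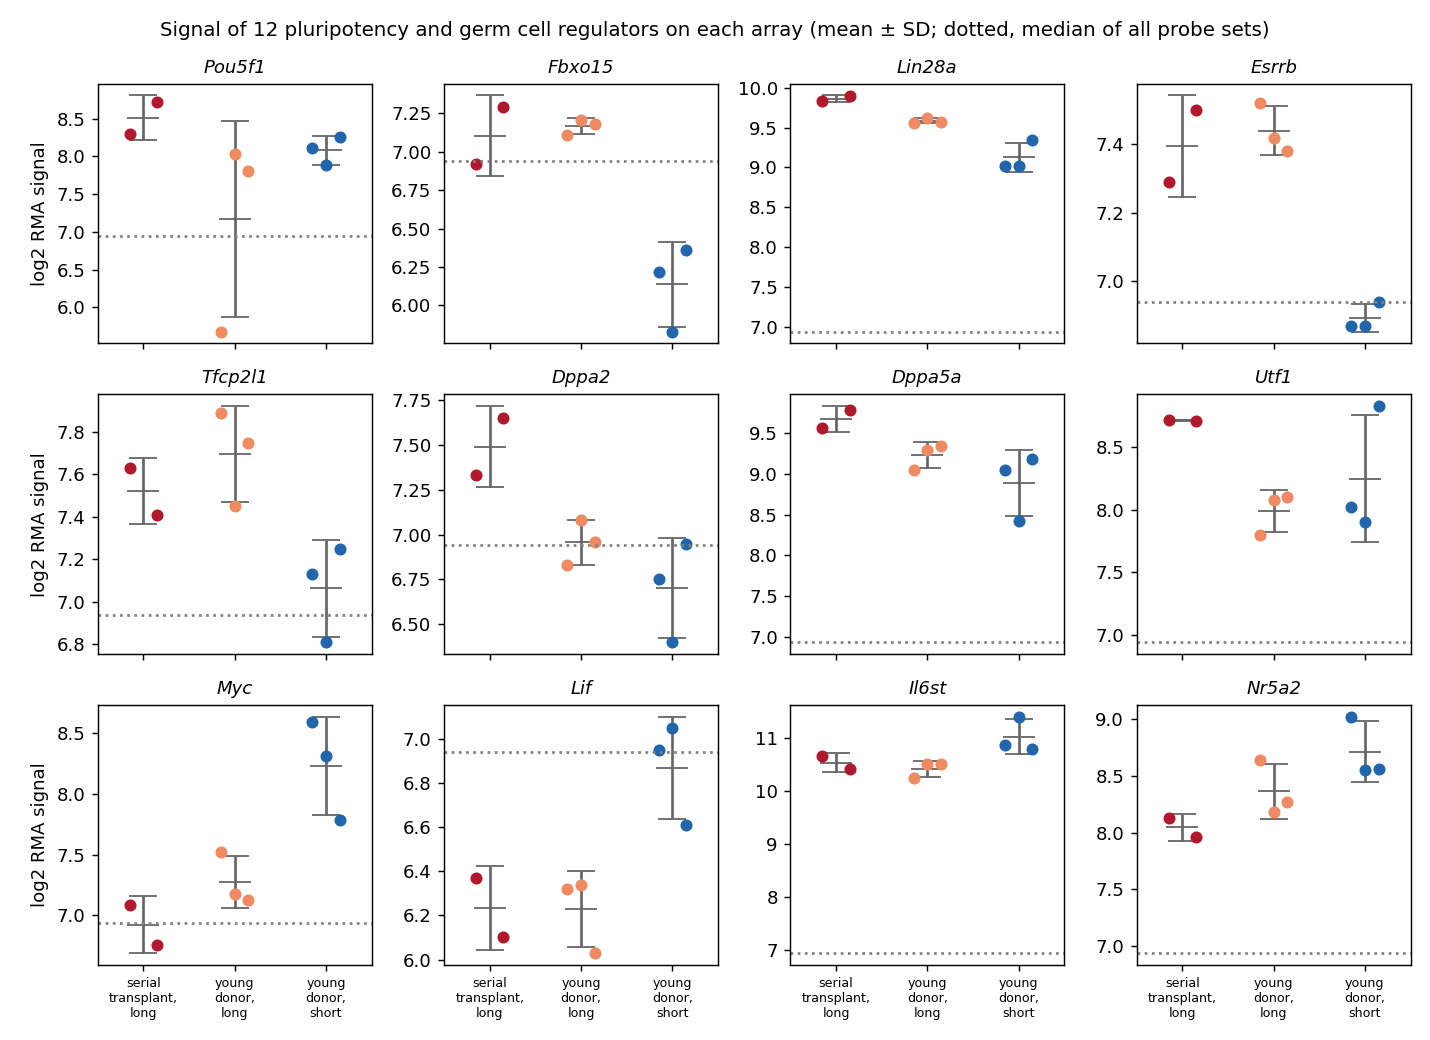
Log2 signal of 12 of the genes on each array (points), with the mean and SD of each group and, dotted, the median of all probe sets at 6.94; axes differ between genes and do not start at 0. The upper left panel shows Pou5f1 at 5.68 on 1 young long-culture array, and Fbxo15, Lin28a, Esrrb and Tfcp2l1 are higher, and Myc and Lif lower, on every long-culture array than on any short-culture array.

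Myc showed the largest fall that passed the test among the 35 genes. It encodes a growth-promoting transcription factor and is a target of LIF signalling in embryonic stem cells. It read 7.09 and 6.76 in serial-transplant, 7.52, 7.18 and 7.13 in young long-culture and 8.59, 8.31 and 7.79 in young short-culture cells. All long-culture arrays were below all short-culture arrays. Myc fell by 0.95 ± 0.19 in young-donor cells (1.93-fold lower, limma adjusted p = 0.0108, and 0.0550 without young long-culture replicate 3) and by 1.31 ± 0.21 in serial-transplant against short-culture cells (2.47-fold lower, adjusted p = 0.00570, and 0.106 without serial-transplant replicate 2). The difference of serial-transplant from young long culture was -0.36 ± 0.21 (adjusted p = 0.789). Mycn, the paralog prominent in embryonic and germ cells, did not pass in any comparison. It read 9.07 and 9.05 in serial-transplant, 9.12, 8.94 and 9.40 in young long-culture and 9.18, 8.68 and 9.05 in young short-culture cells, and its change in young-donor cells was 0.18 ± 0.15 (95% interval -0.14 to 0.51). Of 18 other genes of the MYC network, among them the partner Max, the MXD antagonists and targets such as Ncl, Odc1 and Cad, none passed in any of the 3 comparisons, and all 18 were above the median of all probe sets.

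Among genes known as marks of pluripotent cells, Fbxo15 changed most. Fbxo15, an F-box gene expressed in embryonic stem cells but dispensable there, read 6.92 and 7.29 in serial-transplant, 7.11, 7.21 and 7.18 in young long-culture and 6.22, 5.83 and 6.36 in young short-culture cells. The short-culture values all lay under 6.94, the probe-set median, and below every long-culture array. It rose by 1.03 ± 0.14 in young-donor cells (2.04-fold, limma adjusted p = 0.00282), which held in every alternative that tested it (a filter on dim probe sets left it out), and by 0.97 ± 0.16 in serial-transplant against short-culture cells (adjusted p = 0.00623, and 0.116 without serial-transplant replicate 2).

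Of the 4 Dppa genes, found for their expression in pluripotent cells, 2 rose in serial-transplant against young short-culture cells. Dppa2, a chromatin protein that works in a pair with DPPA4, read 7.33 and 7.65 in serial-transplant, 6.83, 7.08 and 6.96 in young long-culture and 6.75, 6.4 and 6.95 in young short-culture cells. Both serial-transplant arrays were above all others. It rose by 0.80 ± 0.16 against young short culture (1.74-fold, limma adjusted p = 0.0138, and 0.199 without serial-transplant replicate 2), and its difference of 0.54 ± 0.16 from young long culture did not pass (adjusted p = 0.468). The named probe sets numbered on either side of this one belong to genes of chromosome 19, while Dppa2 lies on chromosome 16, and a dimmer probe set that lies among genes of chromosomes 16 and 4 read 5.28 and 5.62 in serial-transplant, 5.11, 4.86 and 5.20 in young long-culture and 4.90, 4.99 and 5.20 in young short-culture cells, a change of 0.42 ± 0.15 against short culture (adjusted p = 0.111). Whether the brighter one reads a copy of the gene was not tested. Dppa4 did not pass: it lay between 8.66 and 8.99 on the long-culture arrays and at 8.73, 8.29 and 9.07 in short culture, and its change of serial-transplant against short-culture cells was 0.15 ± 0.19 (95% interval -0.27 to 0.57). This probe set is numbered among genes of chromosome 2, while Dppa4 lies on chromosome 16, and a second one, among genes of chromosomes 16 and 4, changed by 0.26 ± 0.22 (adjusted p = 0.579). Whether the brighter one reads a copy of Dppa4 was not tested either.

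Dppa5a, an RNA-binding protein of embryonic stem and germ cells, read 9.56 and 9.78 in serial-transplant, 9.05, 9.29 and 9.34 in young long-culture and 9.05, 8.42 and 9.18 in young short-culture cells. It rose by 0.78 ± 0.20 in serial-transplant against short-culture cells (limma adjusted p = 0.0322), which was lost without serial-transplant replicate 1 (0.0822) or 2 (0.295) and in a fit of these 2 groups alone (0.0813). RefSeq lists 2 pseudogenes of it, so its reading is uncertain in the same way. Dppa3, a protein that shields maternal methylation in the egg and zygote, read 6.06 and 6.28 in serial-transplant, 5.87, 5.83 and 5.96 in young long-culture and 4.86, 5.93 and 5.42 in young short-culture cells. The short-culture mean of 5.40 lay just below the lower quartile of all probe sets, in the range of background. Its change of 0.76 ± 0.23 in serial-transplant against short-culture cells missed the test (adjusted p = 0.0668) and passed without short-culture replicate 2 (1.02, adjusted p = 0.00642), as did the change of 0.75 in young-donor cells (adjusted p = 0.0162). With array weights both changes passed as well (limma adjusted p = 0.013 and 0.014). The serial-transplant change also passed with median centring (0.0475), the replicate block (0.0465) and mean probe sets (0.0181). RefSeq lists 1 pseudogene of Dppa3, and a second probe set at background level, numbered among genes of chromosome X, changed by 0.03 ± 0.12 in young-donor cells, against 0.48 ± 0.21 for the brighter one. In serial-transplant against short-culture cells this second probe set changed by 0.39 ± 0.14 (limma adjusted p = 0.12), in the direction of the brighter one.

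Utf1, a chromatin factor of undifferentiated cells that OCT4 and SOX2 activate, read 8.72 and 8.71 in serial-transplant, 7.80, 8.08 and 8.10 in young long-culture and 8.02, 7.90 and 8.83 in young short-culture cells. Both long-culture groups did not overlap, with a difference of 0.72 ± 0.23 (unadjusted p = 0.00838, limma adjusted p = 0.50), and short-culture replicate 3 was higher than either serial-transplant array. Without that short-culture array the change of serial-transplant against short-culture cells was 0.75 (adjusted p = 0.00653), against 0.46 with it (adjusted p = 0.269). Tcl1, a cofactor of the AKT kinase, read 9.76 and 10.00 in serial-transplant, 9.51, 9.66 and 9.71 in young long-culture and 9.76, 9.62 and 9.68 in young short-culture cells, with no call in any comparison. Zfp42 (Rex1), a zinc-finger gene used to mark naive cells, whose promoter window printed above holds the octamer, read 7.34 and 7.35 in serial-transplant, 6.84, 7.31 and 7.05 in young long-culture and 7.20, 6.86 and 7.22 in young short-culture cells. It did not pass in any comparison. Of 26 other measured genes linked to pluripotency, 3 rose and 2 fell in young-donor long culture. Thap11, a transcription factor that embryonic stem cells need, rose by 0.53 ± 0.11, Foxd3 by 0.49 ± 0.13 and Fut4 by 0.48 ± 0.12, while Dnmt3l was at -0.51 ± 0.14 and L1td1 at -0.35 ± 0.10, with Foxd3, Fut4, L1td1 and Dnmt3l below the median of all probe sets. Thap11 (0.78 ± 0.12) and Nacc1 (0.53 ± 0.11) rose in serial-transplant against short-culture cells, and Tcf7l1, a repressor at the end of the Wnt pathway, changed by -0.52 ± 0.14. The median change of the 26 genes was 0.07 and 0.09 in these comparisons, beside -0.04 and -0.01 over all genes. Of all probe sets, 11.3% and 8.73% passed.

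Lin28a, an RNA-binding protein that blocks the maturation of let-7 microRNAs and marks undifferentiated spermatogonia, was highest in serial-transplant and lowest in short-culture cells. It read 9.83 and 9.89 in serial-transplant, 9.56, 9.62 and 9.57 in young long-culture and 9.02, 9.02 and 9.34 in young short-culture cells, and no 2 of the 3 groups overlapped. It rose by 0.45 ± 0.11 in young-donor cells (1.37-fold, limma adjusted p = 0.0219) and by 0.74 ± 0.12 in serial-transplant against short-culture cells (1.66-fold, adjusted p = 0.00575, and 0.0972 without serial-transplant replicate 2). The first of these calls was lost without any 1 of 5 arrays, the 3 of young long culture and short-culture replicates 1 and 2 (adjusted p between 0.0529 and 0.0814), with changes of 0.40 to 0.47. The difference of serial-transplant from young long culture, 0.28 ± 0.12, did not pass (adjusted p = 0.665). Lin28b, its paralog, read 8.49 and 8.65 in serial-transplant, 8.69, 8.79 and 8.69 in young long-culture and 8.77, 8.38 and 8.59 in young short-culture cells. Its change in serial-transplant against short-culture cells was -0.01 ± 0.13 (95% interval -0.29 to 0.27), and all 3 of its groups overlapped with at least 1 other. Of their promoter windows printed above, that of Lin28b holds an E-box and that of Lin28a none of the 5 motifs. Of 10 measured genes of microRNA processing and of LIN28 function, Drosha (0.44 ± 0.11) and Dicer1 (0.41 ± 0.09), the nucleases that cut microRNA precursors, rose in young-donor long culture and Tut7, a uridylyl transferase that acts on let-7 precursors, changed by -0.51 ± 0.11. Serial-transplant against short-culture cells gave calls for Drosha (0.46 ± 0.12) and Tut7, at -0.49 ± 0.12. The median change of the 10 genes was 0.19 and 0.06 in these comparisons, in which 11.3% and 8.73% of all probe sets passed.

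Sall4, a zinc-finger factor of pluripotent cells that spermatogonia also require, read 9.90 and 9.94 in serial-transplant, 9.99, 9.83 and 9.99 in young long-culture and 9.82, 9.26 and 9.85 in young short-culture cells. It did not pass, and short-culture replicate 2 was its lowest array. Of 23 further genes of germ cell specification and identity, 6 rose and 2 fell in young-donor long culture. The risers with the smallest p were Kit, the receptor for stem cell factor (1.41 ± 0.16), and Nanos3, an RNA-binding protein needed for survival of primordial germ cells (0.79 ± 0.13), with Ifitm1 (1.40 ± 0.29) and Dazl (0.46 ± 0.11). The fallers were the membrane protein gene Ifitm3 (-1.18 ± 0.34) and Tfap2a, a paralog of Tfap2c (-0.34 ± 0.10). Against short culture, 4 of them rose and 3 fell in serial-transplant cells, with Kit at 1.21 ± 0.18, Nanos3 at 0.86 ± 0.15, Tfap2a at -0.77 ± 0.11 and Ifitm3 at -1.70 ± 0.38. In each of these comparisons 17 of the 23 changes were positive, with a list median of 0.13 and 0.19. Of 20 markers of undifferentiated spermatogonia, 3 rose and 5 fell in young-donor long culture, with Id4 (-0.80 ± 0.12), Bcl6b (-1.0 ± 0.16) and Lhx1 (-1.30 ± 0.23) among those that fell and Neurog3 (0.49 ± 0.11) among those that rose. Against short culture, serial-transplant cells showed 1 rise, Neurog3 at 0.81 ± 0.12, and 4 falls, with Eomes at -1.27 ± 0.19, Id4 at -0.83 ± 0.13 and Lhx1 at -1.39 ± 0.25. Of the 20 markers, 11 changes were positive in young-donor cells (median 0.02) and 12 in serial-transplant cells (median 0.10). Of all probe sets, 5.43% were called higher and 5.83% lower in young-donor long culture. In serial-transplant against short-culture cells these shares were 3.58% and 5.15%.

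The secreted signals of the list gave no call. Fgf4, which drives embryonic stem cells out of the naive state, lay between 6.96 and 7.33 on the 8 arrays, a little above 6.94, the median of all probe sets. Nodal, a ligand of the TGF-beta family, lay between 6.05 and 6.36, its co-receptor Tdgf1 (Cripto) between 5.48 and 5.90 and the related ligand Gdf3 between 5.75 and 6.27, all dim. In long against short culture of young-donor cells the 95% intervals were -0.45 to 0.04 for Fgf4, -0.23 to 0.26 for Nodal, -0.36 to 0.16 for Tdgf1 and -0.51 to 0.02 for Gdf3. Of 15 measured genes of Nodal signalling, Smad3, a signal transducer, was the 1 that passed, at -0.39 ± 0.10 in young-donor long culture (limma adjusted p = 0.0266). In both other comparisons none of the 15 did.

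Counted by overlap, 13 of the 35 genes (37.1%) had values in serial-transplant and in young long-culture cells that did not overlap, beside 25.7% of all probe sets. Between long and short culture of young-donor cells these were 11 (31.4%) beside 31.4%, and between serial-transplant and young short-culture cells 18 (51.4%) beside 37.3%. Dim and unnamed probe sets are part of these shares over all probe sets.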

How the data were processed

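Per the labels' protocols, RNA of the 8 samples was prepared with Trizol and measured as biotin-labelled cRNA on Affymetrix arrays. The authors deposited 1 table of log2 signals per probe set; the submitters' processing notes name RMA, which normalizes arrays and summarises probes, and Partek 6.4. RMA's settings were not given, and the log2 scale was read from the values (2.42 to 14.81). Of 35557 rows, 6613 with consecutive numbers at the start of the table were taken as controls and left out, leaving 28944. Genes were named from the platform annotation, through probe sets with 1 symbol (21789).

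Differences between the 3 groups were tested in limma 3.58.1 (R 4.3.3), in 1 fit of group means to all 8 arrays. Residual degrees of freedom were 5, to which the moderation added 6.28. Two-sided p-values were adjusted over the 28944 probe sets by Benjamini-Hochberg, at 0.05. Errors are SE of changes and SD of means. The fit was tested on simulated data. The members and gene lists (other pluripotency genes, germ cell specification, LIF and STAT3, MYC network, Nodal, LIN28 and let-7, undifferentiated spermatogonia, fibroblasts, Sertoli cells, macrophages) were chosen with earlier results of these data known. All members are named, as are up to 4 members of each other list with the smallest p among those that passed. Further genes of these lists (L1td1, Tfap2a and Ifitm3 in young-donor cells, Socs3, Ddx4, Max, Ncl, Odc1 and Cad) were named after their values were seen. Alternatives were quantile normalization, median centring, array weights, an intensity trend, a filter on dim probe sets, only the groups compared, mean probe sets, a fold minimum, the replicate block and leaving out each array. Same-numbered arrays of different groups had correlations of deviations from group means between -0.27 and 0.18. Between the young-donor groups these were 0.08, 0.18 and 0.10, while differently numbered arrays gave -0.28 to 0.25. Deviations of the serial-transplant arrays are mirror images, so their correlations only differ in sign. Whether replicate numbers pair the arrays is not settled by these values, and the reported fit used no pairing.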

Additional observations from a re-analysis of the deposited data

How the results depend on the processing

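None of the called changes turned its direction under any alternative. Of 1364 values of single genes under alternatives, 33 lost and 13 gained a call, and 64 uncalled values changed sign, 0 of them past the test. The probe sets called between long-culture groups (0 in the reported fit) numbered 22 with array weights, 15 in a fit of these groups alone and 4 with the replicate block, and 0 without any 1 of their 5 arrays; 0 members passed in each. In young-donor long against short culture, array weights gave 5079 probe sets (3260 reported), a log2 change of at least 1 left 396 and 1 member, and leaving out 1 array gave 1085 to 3195 probe sets and 2 to 7 members. In serial-transplant against short-culture cells, a fit of these groups alone gave 1252 probe sets and 4 members (2528 and 8 reported), a log2 change of at least 1 gave 564 and 1, and leaving out 1 array gave 66 to 2817 and 0 to 9. The replicate block gave 7 and 10 members in the comparisons with short culture, 2754 and 2468 probe sets, and 0 members between long-culture groups. The causes were not tested.

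Values that changed sign, none past the test, were as follows. Between long-culture groups, Klf5 was at -0.02 with array weights, Lif at -0.01 with quantile normalization and -0.11 with the replicate block, and Sall4 at 0.05 with the block. In young-donor cells, Nanog was at 0.06 and Zfp42 at 0.04 with quantile normalization (Nr0b1 at 0.00), Nanog at 0.03, Zfp42 at 0.02 and Klf4 at 0.01 with centring, and Dppa4 at -0.02 with array weights. In serial-transplant against short-culture cells, Klf2 was at 0.01 with array weights and with centring, Dppa4 at -0.01 and Prdm14 at -0.00 with array weights, Nr0b1 at -0.02 with the block and Lin28b at 0.03 with centring. With 1 array left out, ranges that cross 0 between long-culture groups were Nanog -0.01 to 0.14, Klf4 -0.01 to 0.18, Klf5 -0.04 to 0.05, Esrrb -0.15 to 0.06, Nr0b1 -0.07 to 0.31, Lif -0.13 to 0.14, Il6st -0.00 to 0.24, Mycn -0.20 to 0.03, Dppa4 -0.08 to 0.09, Fbxo15 -0.25 to 0.12, Gdf3 -0.01 to 0.28, Fgf4 -0.05 to 0.22 and Sall4 -0.07 to 0.01. In young-donor cells they were Nanog -0.05 to 0.02, Klf4 -0.14 to 0.06, Klf5 -0.01 to 0.07, Nr0b1 -0.26 to 0.12, Zfp42 -0.15 to 0.09, Dppa4 -0.07 to 0.32, Utf1 -0.44 to 0.03, Tcl1 -0.10 to 0.00 and Nodal -0.05 to 0.09. In serial-transplant against short-culture cells they were Nanog -0.03 to 0.12, Klf2 -0.17 to 0.10, Klf4 -0.04 to 0.14, Nr0b1 -0.13 to 0.22, Mycn -0.05 to 0.19, Dppa4 -0.06 to 0.33, Gdf3 -0.25 to 0.04, Fgf4 -0.25 to 0.02, Lin28b -0.11 to 0.08 and Prdm14 -0.18 to 0.25. Mean signals of several probe sets per gene gave 7 and 9 members in the comparisons with short culture. Dim signals and the number of arrays limit all of these.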

Other observations

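Young long-culture replicate 1, on which Pou5f1 was low, was also low within its group for single other genes, which were picked after their values were seen and carry no test. The 23 genes of germ cell specification as a list were not low there: their mean was 9.16, against 8.82 to 9.16 on the other arrays. Ranked by how far that array lay below the lower of its group's other arrays, among the 10884 genes that exceeded the probe-set median, Pou5f1 came first with 2.12 log2 units. Next came Shoc1, a gene of meiotic crossing over, with 1.95, Trap1a, an X-linked tumour rejection antigen, with 1.75, the uncharacterised 4930550L24Rik with 1.45 and Mageb4, of the X-linked MAGE family, with 1.31. Usp17ld (1.21), Tktl1 (1.17), Mov10l1 (1.07) and Mvd (0.93), an enzyme of cholesterol synthesis, followed. Shoc1 read 8.69 and 8.65 in serial-transplant cells, 6.02, 8.08 and 7.96 in young long culture and 8.40, 7.84 and 8.42 in short culture. Mov10l1, a helicase of the piRNA pathway, read 11.18 and 11.09 in serial-transplant cells, 9.33, 10.76 and 10.40 in young long culture and 10.88, 10.55 and 11.04 in short culture. Further down were Morc1 (0.85), a silencer of transposons, Rhd (0.83), Fndc3c1 (0.75), Ddx4 (0.72), Gtsf1 (0.71), of the piRNA pathway, and Trf (0.71). Unlike Pou5f1, some of these were lower still in short culture. On short-culture replicate 2, Mvd read 8.58 (8.69 on young long-culture replicate 1), Rhd 7.21 (7.31) and Trf 7.83 (7.94). Fndc3c1 read 6.78 and 7.33 on short-culture replicates 1 and 2, against 7.77 on young long-culture replicate 1.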
